A study of Homo sapiens with 4 samples.

Results

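Aminoacyl-tRNA synthetases join each amino acid to its tRNA, and their mRNAs were followed here in the human breast cancer line MDA-231, which is mesenchymal in character, after TARBP2 was raised. The set was given as a list of 38 genes named by family, with no measured value in its rule. Earlier results of these data were known when it was chosen. It holds 7 cytosolic synthetases of the multisynthetase complex, 3 scaffold proteins of that complex, 12 other cytosolic synthetases and 16 mitochondrial synthetases. Of these 38 genes, 35 could be measured, among 9599 genes tested in all. No accession was matched to CARS1, the cysteinyl enzyme, and no probe could be tied to FARSB or EEF1E1. In the authors' deposited table the log ratio of TARBP2 over GFP was -0.203 for FARSB, a subunit of phenylalanyl-tRNA synthetase, and 0.141 for EEF1E1, a scaffold protein. The base of that log ratio is not stated.

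The comparison set 2 arrays of cells transfected with pCMV-TARBP2 against 2 arrays of cells transfected with pCMV-GFP. Both plasmids drive their insert from the CMV promoter, the transfections were transient, and total RNA was taken after 48 hours. In the design text the controls are called mock-transfected, but each control sample is labelled pCMV-GFP, and that label is used here. The labels do not say that replicates were separate cultures, so the p-values rest on a spread between arrays that may be purely technical.

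The cytosolic enzymes serve translation in the cytoplasm, and several of them are held together by the scaffold proteins AIMP1, AIMP2 and EEF1E1. A separate set of nuclear genes encodes the enzymes of mitochondrial translation. When an amino acid runs short, uncharged tRNA activates the kinase GCN2, phosphorylated eIF2 raises translation of the transcription factor ATF4, and ATF4 in turn raises many cytosolic synthetase genes through C/EBP-ATF response elements near their start sites. TARBP2 is a double-stranded RNA-binding protein best known as a partner of DICER1.

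The response element is shown first because it divides the members by their start regions. The RefSeq promoter table of GRCh38.p14 holds windows of 250 bases before to 50 bases after the start site for 33 of the 38 members. The motif searched was TGATGNAA on either strand. It was found in 8 of these 33 members (24.2%), against 1217 of 27305 genes with a window (4.5%). Of cytosolic synthetases that the literature lists as ATF4 targets, 7 of 10 with a window had a match, against 0 of 6 other cytosolic synthetases and 1 of 14 mitochondrial synthetases. ATF4 acts through this element, so its presence may have helped to place genes on that list. The contrast between the lists is therefore not an independent check of them. The matches of 7 members follow with 14 bases on each side, read 5′ to 3′ on the strand of the gene, with the motif or its reverse complement in capitals.
AARS1: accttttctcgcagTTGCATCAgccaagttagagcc
CARS1: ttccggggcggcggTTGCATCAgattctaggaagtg
GARS1: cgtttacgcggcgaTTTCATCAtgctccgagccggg
MARS1: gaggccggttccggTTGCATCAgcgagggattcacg
NARS1: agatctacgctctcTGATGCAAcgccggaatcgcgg
TARS1: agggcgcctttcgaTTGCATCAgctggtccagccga
YARS2: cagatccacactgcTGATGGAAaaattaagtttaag
AARS1, CARS1, MARS1 and TARS1 carried the same 8 bases, and NARS1 carried their reverse complement. The match began 4 bases before the start site of MARS1 and 33 before that of GARS1, and 187 and 197 bases before those of AARS1 and YARS2. In NARS1 it began 14 bases after the start site. A match is a description of these letters and not evidence of binding.

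The synthetase mRNAs were all detected, and most of them differed little between the TARBP2 and GFP arrays. Of the 35 tested genes, 9 fell (25.7%), 4 rose (11.4%) and 22 did not pass an adjusted p of 0.05. Among all 9599 genes tested, 23.4% fell and 24.6% rose by the same rule, and among all 22123 detected probes 19.8% fell and 20.5% rose. The share of members that fell is thus close to the background, and the share that rose is below it; no test was made of either. Changes were small, with a median absolute log2 change of 0.17 for the members against 0.31 for all genes tested. Only 1 member, RARS2, changed by more than 0.5, which is 2.9% of the members, against 30.2% of all genes tested. The median signed change was -0.08 for the members and -0.00 for all genes tested. Both TARBP2 arrays lay on the same side of both GFP arrays for 71.4% of the members, and for 78.1% of all genes tested. In RNA from a whole culture, fewer cells of a type and less RNA per cell cannot be told apart.

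With 2 arrays per group, most of these calls needed all 4 arrays. Without TARBP2 replicate 1, 0 members rose and 2 fell (RARS2 and WARS1), and without TARBP2 replicate 2, 0 rose and 1 fell (RARS2). Without GFP replicate 1, 1 rose (MARS2) and 1 fell (RARS2), and without GFP replicate 2, 0 rose and 3 fell (AARS1, MARS1 and RARS2). RARS2 was the only call that held in every alternative fit. None of the 13 members that passed changed direction in an alternative fit.

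**Figure D1:**
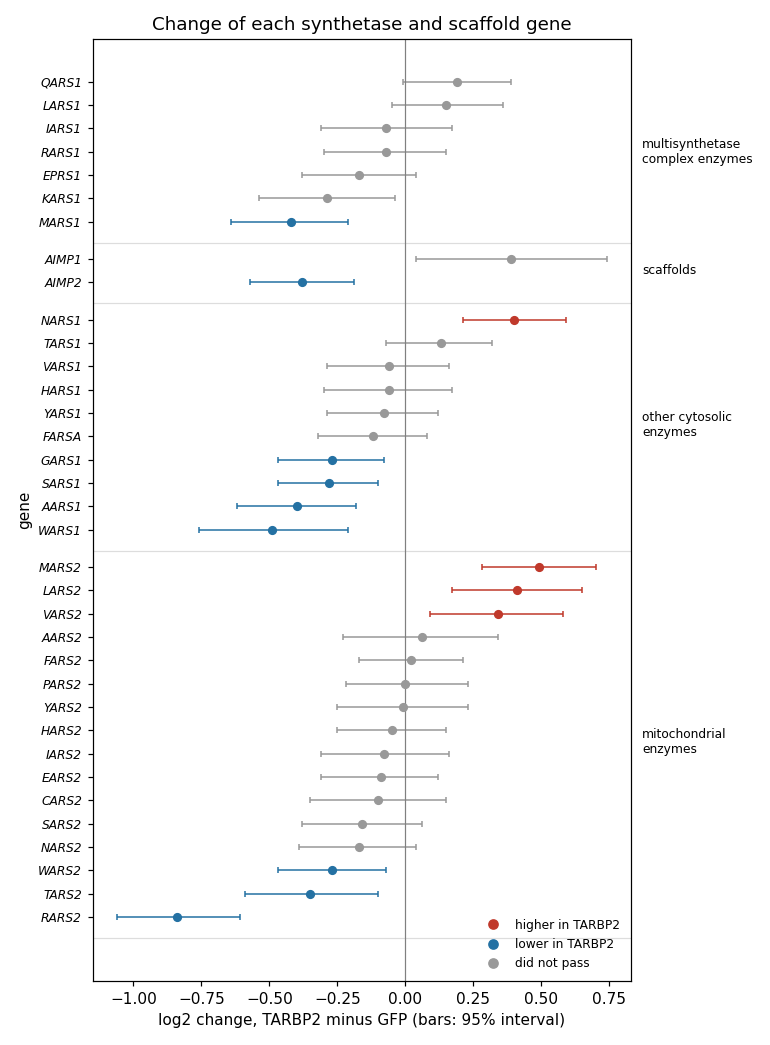
Log2 change (TARBP2 minus GFP, x axis) of the 35 tested genes (y axis), grouped by role, with 95% intervals from limma; red marks genes that rose, blue genes that fell and grey genes that did not pass. RARS2 stands at -0.84, all others lie between -0.49 and 0.49, and falls and rises occur among cytosolic and mitochondrial enzymes alike.

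Levels are log2 of background-corrected, quantile-normalized intensity, with errors of changes as standard errors (SE) of the limma fit and p-values adjusted by the Benjamini-Hochberg method over all detected probes. A probe's level cannot be set against that of another probe. TARBP2 itself, the check of the labels, had levels of 15.11 and 15.12 on the TARBP2 arrays, against 7.26 and 6.97 on the GFP arrays, a 257-fold difference (adjusted p = 4.78e-05). The arrays were alike in brightness, with median raw intensities of 74.5 to 75.5 on the TARBP2 arrays and 78.5 to 78.7 on the GFP arrays. The share of probes detected was 45.6% to 45.9% on the TARBP2 arrays and 44.1% to 44.9% on the GFP arrays. The mesenchymal markers AXL, CD44, MSN and LGALS1 were detected on all 4 arrays. AXL fell by 0.52 and MSN by 0.45 on the log2 scale, while CD44 and LGALS1 did not pass. VIM and CAV1, of the same list, were not tested. Of the luminal markers, KRT8 was detected on all arrays, GATA3 only on the TARBP2 arrays, and FOXA1, CDH1 and KRT18 only on the GFP arrays. FOXA1 had levels of 4.61 and 4.69 on the TARBP2 arrays, against 7.57 and 7.58 on the GFP arrays. GATA3, CDH1 and KRT18 were dim throughout, with levels between 4.68 and 5.37 on all arrays. For these dim genes, detection in 1 group only does not mean that the gene was switched on or off. Of 6 leukocyte markers only CD14 was tested, with levels of 9.21 and 9.27 on the TARBP2 arrays, against 7.43 and 7.13 on the GFP arrays. The part of these markers in the results below was not tested.

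Among the enzymes of the multisynthetase complex, MARS1 alone changed and fell. MARS1, the methionyl enzyme, had levels of 10.90 and 10.81 on the TARBP2 arrays, against 11.32 and 11.24 on the GFP arrays. Both TARBP2 arrays were below both GFP arrays, and the change was -0.42 ± 0.08 (SE; adjusted p = 0.0162). The other 6 enzymes of the complex did not pass. KARS1, the lysyl enzyme of cytosol and mitochondria, had levels of 10.34 and 10.53 on the TARBP2 arrays, against 10.76 and 10.69 on the GFP arrays. Its groups did not overlap, and its change of -0.29 ± 0.10 missed the threshold (adjusted p = 0.0702), although it passed when 1 probe was kept per gene. QARS1, the glutaminyl enzyme, had a change of 0.19 and LARS1, the leucyl enzyme, of 0.15, while EPRS1, the joined glutamyl and prolyl enzyme, stood at -0.17, and IARS1 and RARS1, the isoleucyl and arginyl enzymes, both at -0.07. A second, dim IARS1 probe, with raw intensities of 88.8 to 110.2, had a change of 0.45 (adjusted p = 0.0764).

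The scaffold proteins of the complex did not move together. AIMP2, which binds several of the enzymes, had levels of 12.42 and 12.46 on the TARBP2 arrays, against 12.83 and 12.82 on the GFP arrays. It fell by 0.38 on the log2 scale (SE 0.07, adjusted p = 0.0153), with no overlap between groups. AIMP1, also the precursor of a secreted cytokine, had levels of 7.63 and 7.91 on the TARBP2 arrays, against 7.27 and 7.49 on the GFP arrays. The TARBP2 arrays were the higher ones, but the change of 0.39 ± 0.13 had the largest SE of all members and did not pass (adjusted p = 0.0771).

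Of the other cytosolic enzymes, 4 fell and 1 rose. WARS1, the tryptophanyl enzyme and a known target of interferon gamma, had levels of 10.76 and 10.53 on the TARBP2 arrays, against 11.17 and 11.10 on the GFP arrays. It was lower on both TARBP2 arrays, with a change of -0.49 ± 0.11 (adjusted p = 0.0218), and its dimmer probe gave -0.41 (adjusted p = 0.021). AARS1, the alanyl enzyme, had levels of 12.27 and 12.20 on the TARBP2 arrays, against 12.70 and 12.57 on the GFP arrays, a change of -0.40 ± 0.09 (adjusted p = 0.0214). SARS1, the seryl enzyme, had levels of 10.29 and 10.30 on the TARBP2 arrays, against 10.57 and 10.59 on the GFP arrays, a change of -0.28 ± 0.07 (adjusted p = 0.0346). In both genes the groups were well apart. GARS1, the glycyl enzyme of cytosol and mitochondria, had levels of 12.57 and 12.52 on the TARBP2 arrays, against 12.80 and 12.84 on the GFP arrays, a change of -0.27 ± 0.07 (adjusted p = 0.0407). NARS1, the asparaginyl enzyme, went the other way, with levels of 13.04 and 13.00 on the TARBP2 arrays, against 12.62 and 12.63 on the GFP arrays. It was 31.6% higher in TARBP2 cells, a log2 change of 0.40 ± 0.07 (adjusted p = 0.014), and was the only cytosolic synthetase that rose. The remaining 5, which are FARSA, HARS1, TARS1, VARS1 and YARS1, had changes between -0.12 and 0.13.

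**Figure D2:**
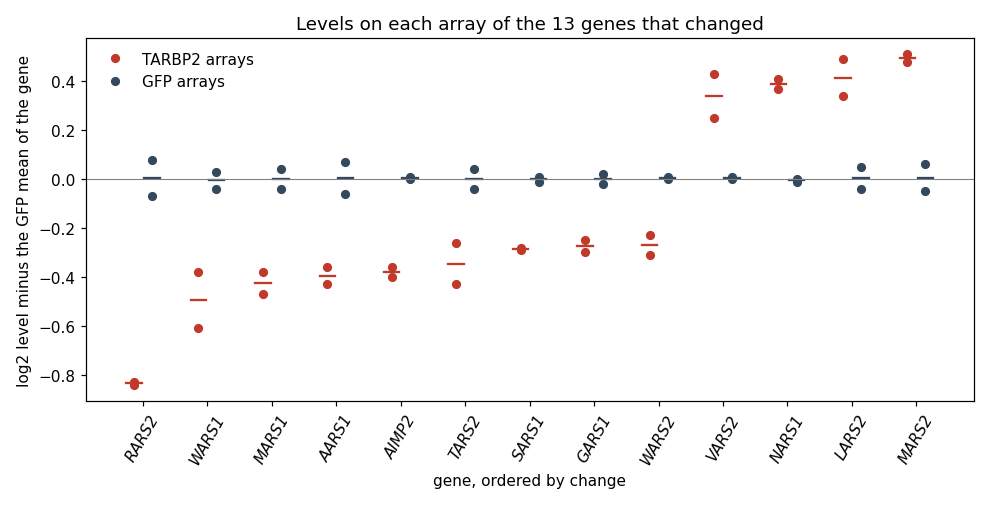
Log2 level on each array minus the GFP mean of the gene (y axis) for the 13 genes that changed (x axis), with TARBP2 arrays in red to the left of GFP arrays in dark blue; short lines are group means. The arrays of the groups do not overlap for any of the 13 genes, and the TARBP2 arrays of RARS2 lie lowest.

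The largest change of the family was in the mitochondrial arginyl enzyme, RARS2, which was 44.1% below its GFP level. RARS2 had levels of 8.68 and 8.67 on the TARBP2 arrays, against 9.44 and 9.59 on the GFP arrays. The TARBP2 arrays nearly coincided, both were far below the GFP arrays, and the change was -0.84 ± 0.09 (SE; adjusted p = 0.00316). TARS2, the threonyl enzyme, had levels of 8.44 and 8.61 on the TARBP2 arrays, against 8.83 and 8.91 on the GFP arrays, a change of -0.35 ± 0.09 (adjusted p = 0.0407). WARS2, the tryptophanyl enzyme, had levels of 9.09 and 9.01 on the TARBP2 arrays, against 9.32 and 9.33 on the GFP arrays, a change of -0.27 ± 0.08 (adjusted p = 0.0455). Both of these falls were close to the threshold.

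The 3 mitochondrial enzymes that rose were of methionine, leucine and valine. MARS2, the methionyl enzyme, had levels of 10.40 and 10.37 on the TARBP2 arrays, against 9.95 and 9.84 on the GFP arrays, a change of 0.49 ± 0.08 (adjusted p = 0.0105). It was named through an accession tied to a pair of probes, and the dimmer of them had a change of 0.59 (adjusted p = 0.0807). LARS2, the leucyl enzyme, had levels of 9.15 and 9.30 on the TARBP2 arrays, against 8.77 and 8.86 on the GFP arrays, a change of 0.41 ± 0.09 (adjusted p = 0.0251). VARS2, the valyl enzyme, had levels of 9.82 and 9.64 on the TARBP2 arrays, against 9.39 and 9.40 on the GFP arrays, a change of 0.34 ± 0.09 (adjusted p = 0.0449). In all 3 genes both TARBP2 arrays were above both GFP arrays. The other 10, which are AARS2, CARS2, EARS2, FARS2, HARS2, IARS2, NARS2, PARS2, SARS2 and YARS2, had changes between -0.17 and 0.06. EARS2 was named through a non-coding transcript accession.

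The 22 members that did not pass had changes between -0.29 and 0.39, and their 95% intervals reached no further than -0.54 and 0.74. Their groups overlapped in 10 of the 22. The lack of a call does not show equal levels.

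The cytosolic and mitochondrial enzymes of an amino acid seldom both passed the threshold. Among all members, 25.7% fell and 11.4% rose, so few pairs could be called on both sides. The direction of a change that did not pass is not counted. For 15 amino acids both enzymes were tested, with EPRS1 counted for glutamate and again for proline. Only the tryptophanyl pair fell on both sides, with WARS1 at -0.49 and WARS2 at -0.27. The methionyl pair moved in opposite directions, with MARS1 at -0.42 and MARS2 at 0.49. Only the cytosolic enzyme changed for 3 amino acids (alanine, asparagine and serine), only the mitochondrial enzyme for 4 (arginine, leucine, threonine and valine), and neither for 6. The difference between the enzymes of a pair was not tested.

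HARS1 and HARS2, the histidyl enzymes of cytosol and mitochondrion, lie head to head, with start sites 85 bases apart, and neither changed. HARS1 had a change of -0.06 ± 0.09 (adjusted p = 0.613) and HARS2 of -0.05 ± 0.08 (adjusted p = 0.643). The RARS2 start region has the same arrangement with ORC3, a subunit of the origin recognition complex, whose start site lies 148 bases away on the other strand. The windows of both promoters are given because each holds the facing start sites of a pair of genes. Capitals mark the bases between the facing start sites. The HARS1 window is chr5:140691321-140691620 and the RARS2 window chr6:87589938-87590237, both on the minus strand of GRCh38.p14 and from RefSeq.
HARS1: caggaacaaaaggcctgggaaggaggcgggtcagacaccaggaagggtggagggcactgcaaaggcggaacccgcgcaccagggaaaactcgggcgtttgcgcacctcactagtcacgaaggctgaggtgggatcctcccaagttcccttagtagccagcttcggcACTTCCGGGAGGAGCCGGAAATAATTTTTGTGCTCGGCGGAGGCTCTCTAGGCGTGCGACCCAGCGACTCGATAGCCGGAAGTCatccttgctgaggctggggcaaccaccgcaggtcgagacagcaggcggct
RARS2: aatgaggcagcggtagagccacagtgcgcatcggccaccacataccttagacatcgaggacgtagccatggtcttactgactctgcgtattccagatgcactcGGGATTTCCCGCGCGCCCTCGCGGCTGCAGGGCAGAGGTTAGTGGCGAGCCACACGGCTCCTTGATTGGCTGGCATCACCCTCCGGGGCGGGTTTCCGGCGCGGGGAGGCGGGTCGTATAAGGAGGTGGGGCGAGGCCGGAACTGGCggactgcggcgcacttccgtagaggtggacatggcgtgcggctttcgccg
ORC3 also fell, by less than RARS2, with a change of -0.28 ± 0.08 (adjusted p = 0.0448). In all, 12 members had another gene facing them within 1000 bases, and 10 of these facing genes were tested. Only ORC3 and LYRM4 changed, and both fell, which is 2 of 10, beside 23.4% of all genes tested that fell. LYRM4, a factor of iron-sulphur cluster assembly, faces FARS2, the mitochondrial phenylalanyl enzyme. LYRM4 had a change of -0.60 ± 0.10 (adjusted p = 0.0105), while FARS2 had a change of 0.02. WARS1 and AIMP2 fell too, but the genes facing them did not pass. WDR25, which faces WARS1, had a change of -0.21 (adjusted p = 0.282), and PMS2, which faces AIMP2, of 0.08 (adjusted p = 0.456). Whether facing genes changed together was not tested. ORC3, LYRM4, WDR25 and PMS2 are named here after their values were seen.

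Changes of the genes around a member were set beside its own, as the median of the 50 nearest tested genes on the chromosome. This median was -0.24 around AARS1 and AIMP2, -0.20 around GARS1, -0.17 around MARS1 and -0.12 around WARS1. With it removed, these 5 genes no longer passed, with adjusted p-values between 0.0524 for WARS1 and 0.477 for GARS1. The members lower in TARBP2 cells then numbered 5, among them YARS1, the tyrosyl enzyme, which passed only there (change -0.28, adjusted p = 0.0466, beside neighbours at 0.20). AIMP1 lay among neighbours with a median of 0.35, and its change was 0.04 with that median removed. RARS2 and the rising genes NARS1, LARS2 and VARS2 lay among neighbours with medians between -0.08 and 0.06, and MARS2 among neighbours at 0.18. All 5 still passed.

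**Figure D3:**
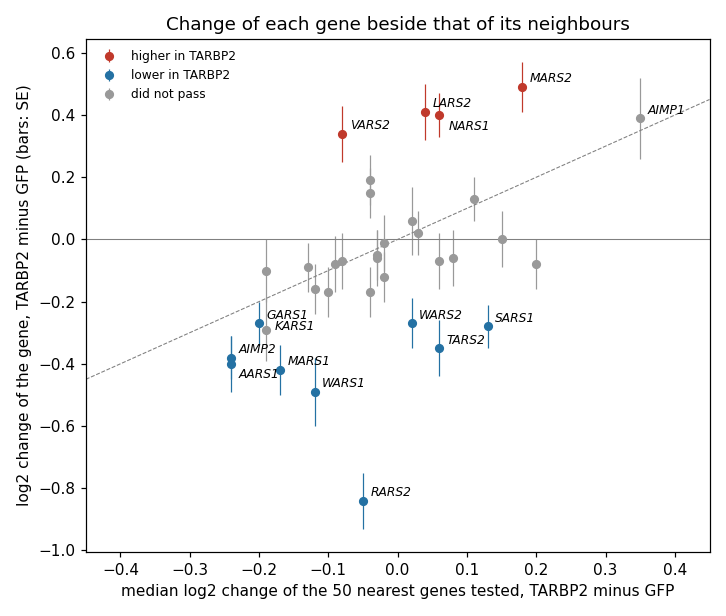
Log2 change of each of the 35 genes (y axis, TARBP2 minus GFP, bars SE) against the median log2 change of its 50 nearest tested genes (x axis); the dashed line marks equal values. AARS1, AIMP2, GARS1 and KARS1 lie below 0 among neighbours whose medians lie between -0.24 and -0.19, while RARS2 at -0.84 lies far below the line.

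The synthetases listed in the literature as ATF4 targets held all cytosolic enzymes that changed. Of 11 tested, 5 fell (AARS1, GARS1, MARS1, SARS1 and WARS1), 1 rose (NARS1) and 5 did not pass, with a median change of -0.17. By the same rule, 23.4% of all 9599 genes tested fell and 24.6% rose. Those shares are the background for the counts of this list and of each list below. Of the 6 other cytosolic synthetases tested, 0 passed limma's test at an adjusted p of 0.05 and 1 (KARS1) had an unadjusted p under 0.05, and their median change was -0.07. No test was made of the difference between these lists. The response element occurred in all classes of call. Among members with a promoter window, it was found in 3 of 9 that fell (AARS1, GARS1 and MARS1), 1 of 3 that rose (NARS1) and 3 of 18 that did not pass (TARS1 and YARS2 among them).

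Most ATF4 targets outside the family fell. Of 17 tested, 11 fell, 1 rose (MTHFD2) and 5 did not pass (CEBPB, PSAT1, SHMT2, SLC7A1 and XPOT), with a median change of -0.42. Among all genes tested, 23.4% fell and 24.6% rose. ASNS, PSPH, ATF3 and STC2, also on this list, were not tested. PHGDH, the entry enzyme of serine synthesis, had levels of 8.92 and 8.92 on the TARBP2 arrays, against 10.75 and 10.67 on the GFP arrays (change -1.79, adjusted p = 0.000373). SLC7A11, the cystine importer, was detected on 1 of 2 TARBP2 arrays, and its fitted change was -2.31 (adjusted p = 0.00211). The lipoprotein receptor VLDLR fell by 1.08 and the transcription factor ATF5 by 0.69 on the log2 scale. The element was found near the start of 6 of 18 genes of this list with a window.

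Genes of the eIF2 and ATF4 pathway, only some of which sense uncharged tRNA, changed in both directions, with 4 of 9 lower and 1 higher (median -0.16). EIF2AK4, the gene of the uncharged-tRNA sensor GCN2, fell by 0.43 (SE 0.08, adjusted p = 0.0158). ATF4 had levels of 13.42 and 13.32 on the TARBP2 arrays, against 13.79 and 13.80 on the GFP arrays. It fell by 0.43 (SE 0.08, adjusted p = 0.0137), and its other detected probes gave changes of -0.68 and -0.46. EIF2S1, the subunit of eIF2 that is phosphorylated, fell by 0.69, and PPP1R15B, a phosphatase subunit that acts on it, fell by 0.79. EIF2AK3, the eIF2 kinase of the endoplasmic reticulum, rose by 1.04 ± 0.11 (adjusted p = 0.00327). The arrays give mRNA levels only, so eIF2 phosphorylation and ATF4 protein were not measured.

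**Figure D4:**
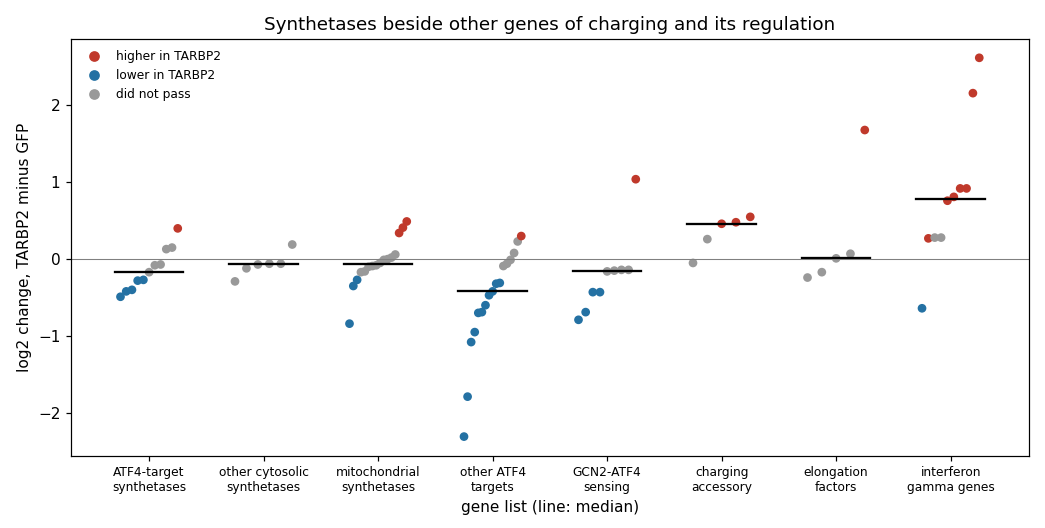
Log2 change (TARBP2 minus GFP, y axis) of each tested gene in 8 lists (x axis), with red for genes that rose, blue for genes that fell, grey for genes that did not pass and a line at the list's median. The medians are -0.17 for ATF4-target synthetases, -0.42 for other ATF4 targets and 0.46 for accessory factors of charging.

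The accessory factors of tRNA charging that were tested were higher where they changed. QRSL1, MTFMT, AARSD1, TRNT1 and THG1L, also on this list of 10, were not tested. Of 5 tested, 3 rose and 0 fell, also 0 at an unadjusted p under 0.05, with a median change of 0.46 against -0.00 for all genes tested. PSTK, the kinase of the selenocysteine pathway, had levels of 8.78 and 8.77 on the TARBP2 arrays, against 8.37 and 8.24 on the GFP arrays, a change of 0.48 ± 0.08 (adjusted p = 0.012). SEPSECS, the enzyme that completes selenocysteine on its tRNA, was detected on both TARBP2 arrays and 1 GFP array, with a fitted change of 0.55 (adjusted p = 0.0386). GATB, a subunit of the mitochondrial amidotransferase that makes glutaminyl-tRNA, had a change of 0.46 ± 0.09 (adjusted p = 0.0143), and its partner GATC had 0.26 (adjusted p = 0.149). DTD1 had -0.05 (adjusted p = 0.69). The neighbours of PSTK and GATB had median changes of 0.33 and 0.38. The part of this shared shift in their changes was not tested.

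Of the factors that carry charged tRNA to the ribosome and their exchange factors, most tested genes did not pass. EEF1A1, EEF1D and EEFSEC, also on this list, were not tested. Of 5 tested, only EEF1A2, an isoform of elongation factor 1A, changed. It had levels of 10.91 and 10.88 on the TARBP2 arrays, against 9.23 and 9.20 on the GFP arrays, a change of 1.68 ± 0.07 (adjusted p = 0.000383). TSFM, a mitochondrial elongation factor, had -0.24 (adjusted p = 0.0578), and EEF1B2 and EEF1G, subunits of the exchange factor, had -0.17 and 0.07. TUFM had 0.01 (adjusted p = 0.941).

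WARS1 is set beside other genes known to respond to interferon gamma because it is a member of both groups. Of 10 such genes tested, 7 rose and 1 fell, with a median change of 0.79, whereas WARS1 fell. GBP2, a guanylate-binding protein, had levels of 9.26 and 9.29 on the TARBP2 arrays, against 6.86 and 6.45 on the GFP arrays (change 2.62, adjusted p = 0.000714). PSMB8, an immunoproteasome subunit, rose by 0.92 and GBP1 by 0.81. The chemokine CXCL10 was detected on both TARBP2 arrays and 1 GFP array, with a fitted change of 2.16 (adjusted p = 0.00022). The gamma-interferon activation site, searched as TTCNNNGAA, which reads the same on both strands, was found in 5 of 33 members with a window, against 2560 of 27305 genes (9.4%). It is shown for the 2 tryptophanyl enzymes, both of which fell, with the match in capitals and 14 bases on each side, from RefSeq windows of GRCh38.p14.
WARS1: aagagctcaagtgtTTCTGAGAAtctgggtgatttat
WARS2: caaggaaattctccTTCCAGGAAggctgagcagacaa
The other matches lay in CARS1, PARS2 and TARS1, and PARS2 and TARS1 did not pass the test.

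In the authors' deposited table, whose classes are down-regulated and background, 10 of the 35 tested members were classed as down. These were the 9 that fell here and KARS1. FARSB, which was not tested here, was also classed as down. The share classed as down among all accessions was not counted, so the 10 cannot be set against a background. The classes come from the same arrays and are not an independent check of the calls made here.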

How the data were processed

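Per the file headers, the authors deposited non-normalized bead intensities with a detection p-value per probe for 4 arrays, quantile-normalized intensities, and a table of log ratios, taken as log2, with a class of down-regulated or background. The submitters' processing notes name lumi, with its version and role not given in the sources used. No table pairs probes with accessions, so both were joined by value. The authors' log ratio had to equal, to 1e-09, a probe's difference of group means after a scaled inverse hyperbolic sine, fitted to the deposited quantile-normalized values. This tied 33115 of 39747 accessions (83.3%) to 1 probe, and 773 more to a pair of probes (tolerance 7e-10), of which 15.3 are expected by chance. RefSeq of GRCh38.p14 gave symbols to 18437 probes. Probe sequences were not used, so reading of a relative was not checked.

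Intensities were background-corrected (normexp from detection p-values, offset 16), quantile normalized and taken to log2. The 22123 probes detected (p under 0.05) on 2 or more arrays were compared with limma 3.58.1 under R 4.3.3 (lmFit and eBayes, 2-sided, 2 residual and 2.81 prior degrees of freedom) with Benjamini-Hochberg adjustment over all of them. "Rose", "fell" and "changed" mean an adjusted p under 0.05. A gene is called by its detected probe of highest mean level. Each group has 2 arrays, and this number limits the precision. Same-numbered arrays did not deviate together (correlation 0.01), so replicate numbers were not used as a block in the fit. The join and the fit were tested on simulated data.

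The members and gene lists were chosen with earlier results of these data known. Named in full are members that passed with groups apart, and in each other list up to 4 genes of smallest p. EIF2AK4, TUFM and DTD1 were named in addition, with their values known. Signature motifs of the proteins were not analysed here, and the sequence of 1 promoter match is not reported here.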

Additional observations from a re-analysis of the deposited data

How the results depend on the processing

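Directions of the 13 called members held in every alternative. Of the 22 members that did not pass, 10 took the other sign in at least 1 alternative, at log2 changes between -0.146 and 0.093 that did not pass either. Members that fell numbered 9, but 5 without a detection filter and 5 with the median of 50 neighbouring genes removed, where the median change of the members was -0.045 against -0.077. Without the filter, p-values were adjusted over 47323 probes. With the replicate number as a replicate block, 4 members rose and 6 fell. GARS1, SARS1, VARS2 and WARS2 then missed the threshold and AIMP1 passed. The arrays share only a number, so the block was not a paired design. Leaving out each array in turn gave 0 to 1 members that rose, 1 to 3 that fell and a median between -0.125 and -0.079, and over all detected probes 2317 to 3054 that rose and 2281 to 2762 that fell, against 4533 and 4383 with all arrays. The lone array was then assumed to vary like the other group. Adjusting over 1 probe per gene, or using the authors' quantile-normalized intensities, added AIMP1 and KARS1; no background correction added QARS1 as well, and median centring lost TARS2. All 35 members were detected on all 4 arrays, and the lowest single raw intensity of a probe used for a call was 202.8, for AIMP1 on GFP replicate 1.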
